A study of Homo sapiens with 26 samples.

Results

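TF2 is a pool of guide RNAs against transcription factors, screened for their effect on muscle differentiation in RH4, an established human alveolar rhabdomyosarcoma line that carries the PAX3-FOXO1 fusion gene. All targets named in the pool were taken except the control guide sets that every pool carries, which gave 108 targets of the 983 target measurements in the 10 pools of the series. Of these, 103 targets had 10 guides, 4 had 9 and YBX1 had 6. Infected and drug-selected cells were fixed at day 7 after infection and stained for myosin heavy chain (MYH). Flow sorting split them by that stain into an MYH high and an MYH low fraction, and the guide cassettes in the genomic DNA of each fraction were counted. The cells of both arms share the line, the fusion and the library, and differ in the gate. Each arm is 1 sample, so no target has a replicate check, no test between the arms exists, and the SD given beside a median is that over the guides of the target.

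The MYH high sample held 47676697 reads and the MYH low sample 85604102, over 1139 guides. Guide counts ran from 201 to 359171 (median 34783) in MYH high cells, and from 236 to 325930 (median 64648) in MYH low cells. Counting alone gave a median standard error of 0.0096 on the log2 scale per guide. The median SD over the guides of a target was 0.21, so the guides of a target differed by far more than counting error. PCR reads without molecular identifiers are not independent molecules, and the intervals below cover counting error only.

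As background, PAX3-FOXO1 joins the DNA-binding part of PAX3 to the activation part of FOXO1 and holds alveolar rhabdomyosarcoma cells in an immature muscle state. Muscle differentiation is driven by basic helix-loop-helix factors such as MYOD1 and MYOG, which bind DNA with E proteins, and myosin heavy chain is made late in that programme. ID proteins are helix-loop-helix proteins without a DNA-binding region that take E proteins away from such factors. A knockout that moves cells toward MYH raises the share of its guides in the MYH high fraction.

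The guides against the fusion differed most between the arms. The set PAX3_Fusion_DBD, which cuts the DNA-binding part of PAX3 in the fusion, took 2.57% of the reads of MYH high cells (exact binomial 95% confidence interval 2.56 to 2.57%), against 0.401% of those of MYH low cells (0.400 to 0.403%). The median log2 ratio over its 10 guides was 2.91 (SD 0.65), or 7.53-fold, and all guides lay above 0, between 1.10 and 3.25. The set FOXO1_fusion took 2.94% of the reads in MYH high cells (2.93 to 2.94%), against 0.652% in MYH low cells (0.651 to 0.654%). Its median was 2.33 (SD 0.63), or 5.04-fold, with 10 of 10 guides above 0. These ratios stand far outside those of every target in the pool.

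The other shared sets lay closer to 0. For PCNA, which clamps DNA polymerase to its template, the median log2 ratio was 0.35 (SD 0.49), with 7 of 7 guides above 0, the lowest at 0.064 and the highest, sgRNA3230, at 1.48. PAX3_non-fusion had 0.14 (SD 0.19), MYOD1 had -0.070 (SD 0.23), and the 10 negative-control guides had -0.11 (SD 0.66). FOXO1_non-fusion had 0.20 (SD 0.81), a spread made by 1 guide. That guide, sgRNA3191, stood at 5764 CPM (counts scaled to a common total of 1e+06 reads per sample) in MYH high cells, against 973 CPM in MYH low cells, a log2 ratio of 2.65. The other 9 guides of the set lay between -0.18 and 0.70, with a median of 0.19 (SD 0.25). The same guide had log2 ratios of 2.48 to 4.23 in the other 9 pools, and 6 of them label it FOXO1_fusion.

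**Figure D1:**
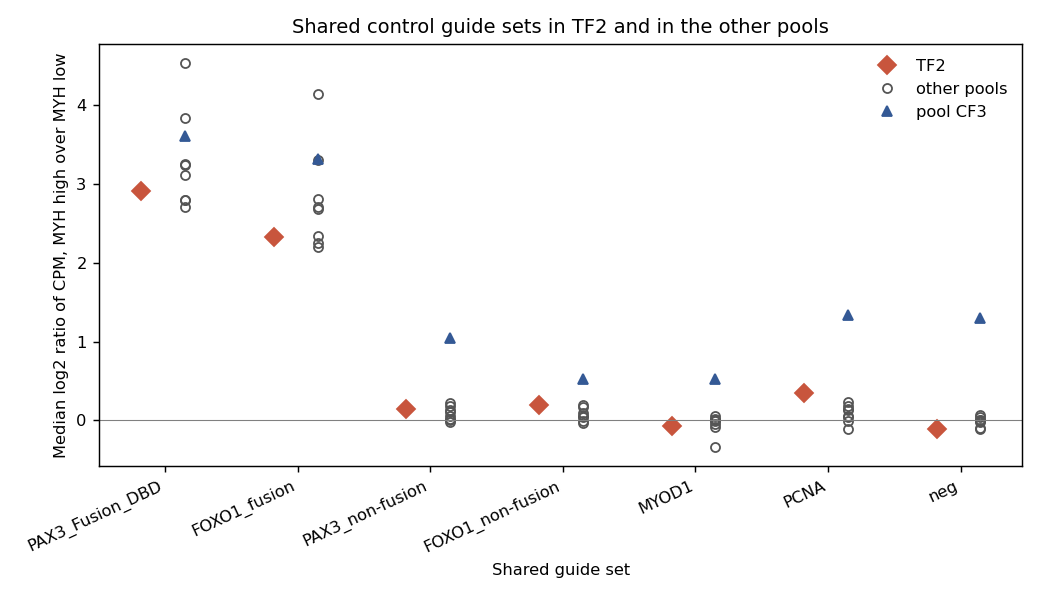
Median log2 ratio of CPM, MYH high over MYH low, for each shared guide set (x axis) in TF2 (diamonds, left of each pair) and in the other pools (circles, with pool CF3 as triangles). Points are medians over the guides of a set in 1 sort, and FOXO1_non-fusion leaves out TF1, which has 2 of its guides; in TF2 both fusion sets stand above 2 and the other sets between -0.11 and 0.35.

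Both fusion sets of TF2 lay in the lower part of the 10 sorts, without a difference that the design could show. For PAX3_Fusion_DBD, TF2 had 2.91 against a mean of 3.32 ± 0.59 in the other pools (SD, n = 9), 7th from the top of 10. For FOXO1_fusion it had 2.33 against 2.86 ± 0.63 (SD, n = 9), 8th of 10. PCNA ranked 2nd, at 0.35 against 0.22 ± 0.43 (SD, n = 9), and the negative controls ranked last, at -0.11 against 0.13 ± 0.44 (SD, n = 9). For the negative controls the next lowest pool stood at -0.106, beside -0.110 in TF2. In an exact two-sided permutation test of TF2 against the other pools, p was 0.6 for both fusion sets, 0.6 for PCNA and 0.2 for the negative controls, and the adjusted p was 0.778 for each of the 4 (Benjamini-Hochberg over 7 sets). With 1 pool against 9 the smallest p this test can give is 0.1. Pool CF3 raised the means of the other pools for PCNA and the negative controls; without it they were 0.085 ± 0.11 and -0.011 ± 0.061 (SD, n = 8 each), and PCNA in TF2 then stood highest, with the smallest p that 9 pools allow in the exact permutation test, 0.111 (adjusted 0.583).

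No target of TF2 approached the size of the fusion sets. A target was counted as past the limit where the median log2 ratio over its guides was at least 0.3 (1.23-fold) in either direction. Of 108 targets, 0 were past it toward MYH high (0% called) and 0 toward MYH low (0% called). Over the other 9 pools the shares were 1.71% of 875 target measurements toward MYH high and 0.8% toward MYH low, and without CF3 they were 1.69% and 0.65%. Pools KP1, DR1 and DR2 also had 0 targets past the limit in either direction, with highest medians of 0.249, 0.146 and 0.139. The medians in TF2 ran from -0.18 (JUNB) to 0.25 (ID3), with an SD of 0.094 over targets, and 74 of the 108 lay within 0.1 of 0. Centred on the negative controls, 3 targets reached 0.3 (ID3, TERF1 and HNF4A), and with the mean over guides 1 did (SIX5). The control median rests in part on 1 guide, sgRNA3239 at -2.06, without which it was -0.044 in place of -0.11. For 103 of the 108 targets the SD over guides was larger than the size of the median. Guides of 1 target thus differed more than the medians of most targets did.

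Which side of 0 a target fell on depended on the centring of the ratios. Ratios were centred on the median over all guides of the pool, which put 53 targets above 0 and 55 below. Centred on the 10 negative-control guides, 95 of the 108 targets (88.0%) lay above 0, and with no centring 19 (17.6%) did, against 49.1% here. The first alternative adds 0.11 to every ratio and the second takes away 0.089, so a median between -0.11 and 0.089 has no settled sign. The order of the targets is the same under all 3. Without sgRNA3239 the negative-control median was -0.044, so that band and the 95 targets above 0 rest in part on 1 guide. Over the 103 targets with 10 guides, 25 had 3 guides above 0, the commonest number, 14 each had 4, 5 and 7, and 17 had 6. At the ends, 9 guides above 0 were seen for 3 targets and 10 for 1, while 2 targets had 1 guide above 0 and 0 targets had no guide above 0.

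**Figure D2:**
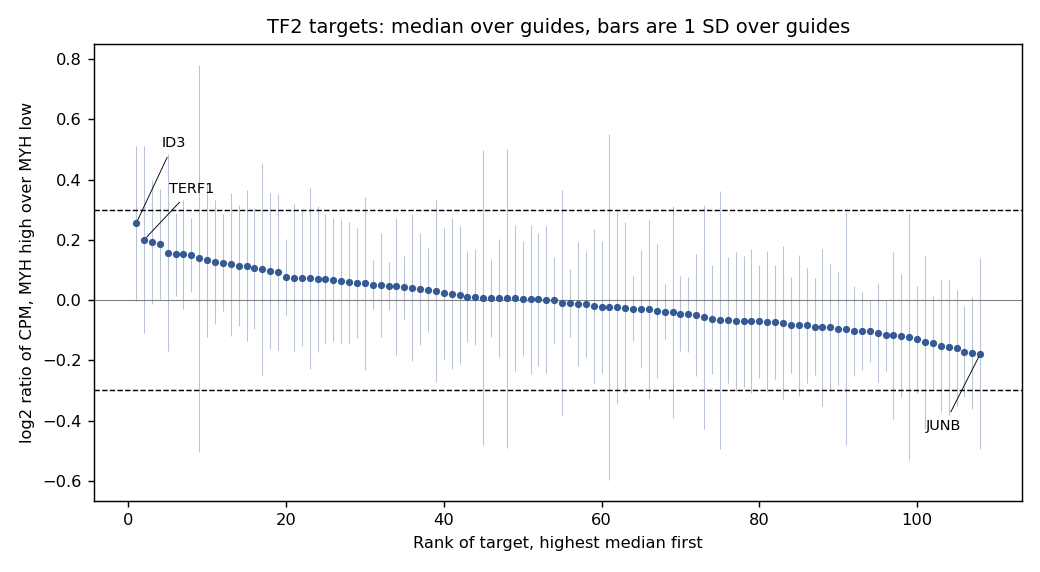
Median log2 ratio of CPM, MYH high over MYH low, for the 108 TF2 targets by rank, with bars of 1 SD over guides and dashed lines at the limits of 0.3 and -0.3. All medians lie between -0.18 and 0.25, inside both lines, and the bars of most targets cross 0; the zero line moves by 0.11 or 0.089 with the other centrings.

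ID3 was the target with the highest median and the 1 target whose guides all lay above 0. It was not the highest without the farthest guide of each target (0.20, against 0.21 for TERF1), with the mean over guides (0.30, against 0.45 for SIX5) or with summed CPM (0.23, against 0.38 for ZNF784). Its guides took 0.662% of the reads in MYH high cells (exact binomial 95% confidence interval 0.659 to 0.664%), against 0.602% in MYH low cells (0.600 to 0.603%). Per guide they stood at 261 to 1619 CPM (median 518) in MYH high cells, and at 165 to 1502 CPM (median 404) in MYH low cells, before centring, so the ranges of both arms overlap across guides. The median log2 ratio was 0.25 (SD 0.26), or 1.19-fold, with guides between 0.015 and 0.89. The highest guide, sgRNA1347, had 287 CPM in MYH high cells and 165 CPM in MYH low cells. ID3 was 1 of 107 targets with at least 8 guides (0.935% called) to have every guide above 0, where the other 9 pools had 2.65% of 867, or 2.62% of 763 without CF3. No target had every guide below 0 (0% called), where the other 9 pools had 1.15%, or 1.18% without CF3. With no centring 0 targets had every guide above 0, and centred on the negative controls 7 had, ID3 among them. ID3 stood 0.055 above the next target, TERF1, a gap smaller than the SD over the guides of either.

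The other ID genes in the pool did not stand with ID3. ID2 had a median of 0.0013 (SD 0.25) with 5 of 9 guides above 0. ID4 had -0.12 (SD 0.12) with 2 of 10 guides above 0, among the 15 lowest targets. It lay below 0 in each of the 13 settings tried, but barely so, at -0.0067, when centred on the negative controls. ID4 guides stood at a median of 800 CPM in MYH high cells and 912 CPM in MYH low cells. No test of the difference between ID3, ID2 and ID4 was made, since the guides of 1 sort are not replicates.

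After ID3 the highest medians belonged to factors of many families. TERF1, a protein of the shelterin complex that binds telomere repeats, had 0.20 (SD 0.31), with 7 of 10 guides above 0 and guides from -0.41 to 0.53. HNF4A, a nuclear receptor of liver and gut, had 0.19 (SD 0.21), and MYBL2, a factor that drives cell cycle genes, had 0.19 (SD 0.18), each with 7 of 10 guides above 0. HNF4A guides had a median of 737 CPM in MYH high cells and 674 CPM in MYH low cells, and MYBL2 guides 580 CPM in MYH high cells and 532 CPM in MYH low cells. For TERF1 these medians, taken before centring, went the other way, at 646 CPM in MYH high cells and 678 CPM in MYH low cells. The mean log2 ratio of TERF1 was 0.11. CDX2, an intestinal homeobox factor, had 0.15 (SD 0.14) and HSF1, the main factor of the heat shock response, had 0.15 (SD 0.12). Both had 9 of 10 guides above 0. Before centring, CDX2 guides had a median of 1039 CPM in MYH high cells and 1111 CPM in MYH low cells. HSF1 guides had 642 CPM in MYH high cells and 634 CPM in MYH low cells. MYBL2, CDX2 and HSF1 are 3 of the 5 targets whose SD over guides was below the size of the median. Positions 5, 7 and 10 to 15 from the top were held by HOXD4, ATF5, CEBPD, SIX2, HMX1, ZEB2, GLI2 and NEUROD2, with medians of 0.11 to 0.16 and 6 to 8 guides above 0. GLI2 is an effector of Hedgehog signalling, and ZEB2 a repressor of epithelial genes. Neighbours in this order do not differ beyond the spread over their guides.

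At the low end, JUNB, a subunit of the AP-1 factor, had the lowest median, -0.18 (SD 0.32), with 7 of 10 guides below 0 and single guides from -0.49 to 0.48. Its guides had a median of 546 CPM in MYH high cells and 623 CPM in MYH low cells. TSC22D2, a leucine zipper protein of the TSC22 family, had -0.18 (SD 0.19). DNAJC2, a cochaperone that works at the ribosome, had -0.17 (SD 0.15) with 8 of 10 guides below 0, at a median of 1119 CPM in MYH high cells and 1280 CPM in MYH low cells. SUB1, the transcriptional coactivator PC4, had -0.16 (SD 0.19), also with 8 of 10 guides below 0. ZBTB7A, a zinc finger repressor, had -0.16 (SD 0.23). The medians of ZNF2, ZNF79, ELF5, NFAT5, MNT, KLF14, ZNF416, ID4, MTF1 and POU2F1 ran from -0.15 to -0.10. POU2F1, the ubiquitous octamer-binding factor OCT1, had the narrowest spread of these 15, with -0.10 (SD 0.10) and 9 of 10 guides below 0, but centred on the negative controls its median was 0.0062. MNT, a partner of MAX that opposes MYC, had a median of -0.12 and a mean over guides of 0.081, since 2 of its guides reached 0.70 and 0.83.

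**Figure D3:**
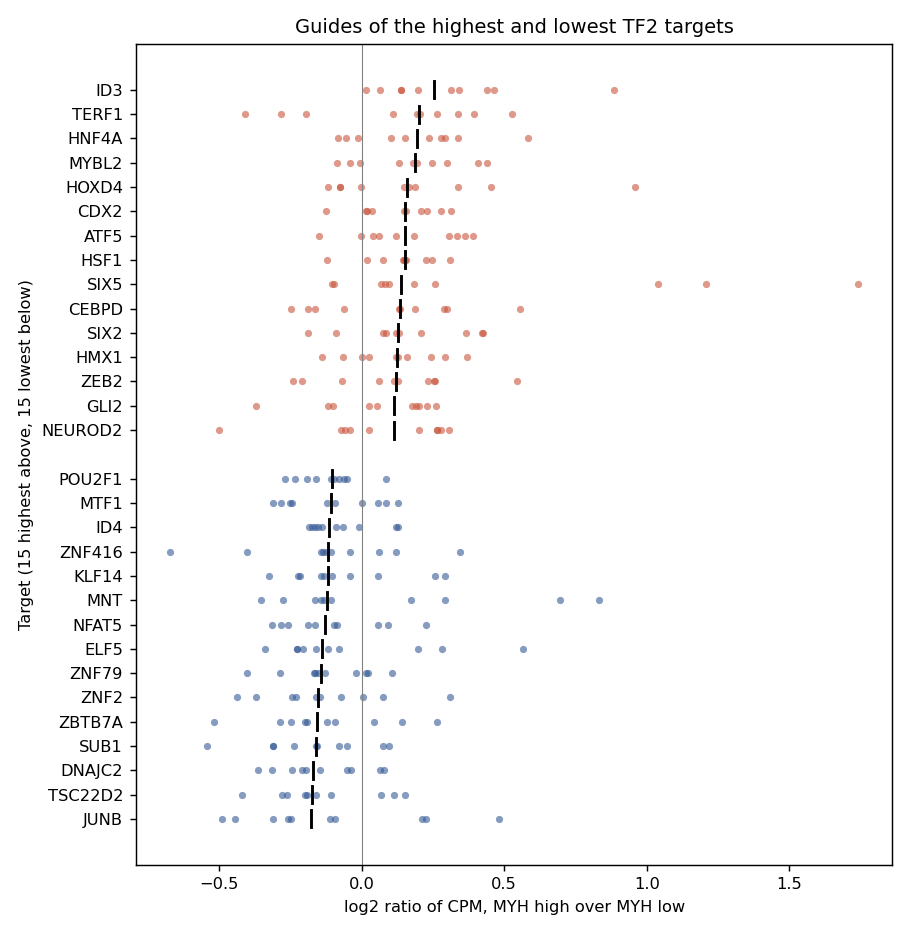
Log2 ratio of CPM, MYH high over MYH low, of each guide (points) of the 15 highest (above) and 15 lowest (below) TF2 targets, with the median as a black bar. The guides of ID3 all lie above 0, 3 guides of SIX5 lie apart above 1, and the guides of most other targets fall on both sides of 0.

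Of 34 lists of transcription factor families, 27 had a TF2 target and 12 had at least 3; 103 of the 108 targets were on a list. No list had a member past 0.3 in either direction, beside 0% over all targets, and the medians of the 12 lists with at least 3 targets lay between -0.083 and 0.10, against -0.0051 for all 108. These medians are small enough that the other centrings turn the sign of each of the 12, except AP-1 and ATF, so they are given as places relative to the other targets.

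The pool holds no NF-Y subunit and no PAX target. Of the myogenic and rhabdomyosarcoma core list it holds 5: ID3, ID2, SNAI2, SOX8 and ID4, with a median of -0.049. SNAI2, a repressor known from the epithelial-mesenchymal transition, had -0.049 (SD 0.20), and SOX8, an HMG-box factor of the SoxE group, had -0.082 (SD 0.16). MYOD1 was present through its shared guides, with 3 of 10 above 0, at a median of 572 CPM in MYH high cells and 645 CPM in MYH low cells.

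The homeobox targets outside the HOX clusters formed the largest developmental list, with 14 members, 10 above 0 and a median of 0.063. They ran from -0.10 for LHX5 (SD 0.15) to 0.15 for CDX2, with SIX5, SIX2, HMX1 and ZEB2 next to CDX2. The 4 HOX targets had a median of 0.036, from -0.075 for HOXB7 (SD 0.25) to 0.16 for HOXD4 (SD 0.33), whose highest guide reached 0.96. The 4 forkhead targets, FOXN4, FOXD1, FOXS1 and FOXK1, lay within 0.059 to 0.077. Their SDs over guides were wider than that band, at 0.13, 0.30, 0.22 and 0.20 in this order. Their means over guides were 0.033, -0.012, 0.096 and 0.057. These targets are relatives of FOXO1, which was itself covered through the shared sets. The 10 helix-loop-helix targets outside the MYC network had a median of 0.0039, with ID3 at the top, NEUROD2, a neuronal factor, at 0.11 (SD 0.25), and ID4 at the bottom.

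The list of zinc finger factors held 31 of the targets and lay slightly lower, with 10 above 0, 21 below and a median of -0.029. It does not hold every zinc finger factor of the pool. The Sp and KLF targets, MTF1 and ZEB2, for example, are on other lists, and HKR1, now named ZNF875, is on no list. In the list, GLI2 was the highest at 0.11 (SD 0.20) and ZBTB7A the lowest. The 4 ZBTB targets had a median of -0.083, from ZBTB7A to 0.043 (SD 0.11) for ZBTB17, a partner of MYC also known as MIZ1. The 3 Sp and KLF targets ran from -0.12 (SD 0.20) for KLF14 to 0.048 for SP1. SP1, which binds GC boxes in many promoters, had the narrowest spread of all 108 targets, an SD of 0.080.

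Among smaller lists, the AP-1 and ATF list had 4 targets, of which CEBPD and NFE2 are leucine zipper factors outside both families. The highest was ATF5, 7th in the pool, at 0.15 (SD 0.18). CEBPD followed at 0.13 (SD 0.26), NFE2 at 0.070 (SD 0.24) and JUNB, the lowest of the pool, at -0.18. The 4 MYB and SANT targets spanned most of the range of the pool, from DNAJC2 to TERF1. The 3 nuclear receptors were HNF4A, RARG at 0.030 (SD 0.30) and RARA at -0.055 (SD 0.37). RARA and RARG are receptors for retinoic acid, and each had 1 guide well apart from the rest, at 0.92 and 0.74. The list of DM-domain and other factors had 6 members and a median of 0.0067, from MTF1, the metal-responsive factor, at -0.11 (SD 0.16) to THAP1 at 0.074 (SD 0.24).

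**Figure D4:**
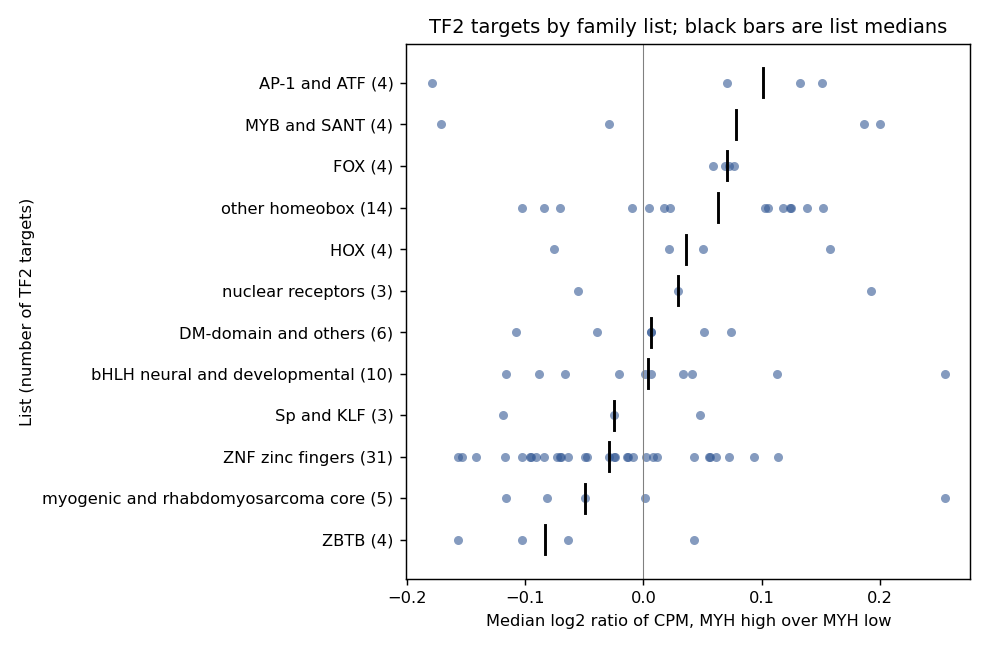
Median log2 ratio of CPM, MYH high over MYH low, of each TF2 target (points) in the 12 lists with at least 3 targets, ordered by list median (black bars), with the number of targets in brackets. The list medians lie between -0.083 and 0.10, and the zero line moves by 0.11 or 0.089 with the other centrings.

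Single guides went much further than targets, and the largest ratios were toward MYH high. Of the 1072 guides of the targets, 8 had a log2 ratio of at least 1 and 0 of -1 or less, while 43 had at least 0.5 and 7 had -0.5 or less. The 8 guides are 0.746% of the target guides of TF2. In the other 9 pools 38 of 8874 target guides (0.428%) reached 1, with 0 to 0.883% per pool, and 3 reached -1. The highest guides of TF2 were thus of a size that the median over 10 guides does not show.

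SIX5 held 3 of the 8 guides. It is a homeobox transcription factor. Guide sgRNA1639 had 255 CPM in MYH high cells and 80.5 CPM in MYH low cells, a log2 ratio of 1.74. Guide sgRNA1643 had 461 CPM in MYH high cells and 211 CPM in MYH low cells, a ratio of 1.21. Guide sgRNA1644 had 342 CPM in MYH high cells and 177 CPM in MYH low cells, a ratio of 1.04. The other 7 SIX5 guides lay between -0.10 and 0.26. The SIX5 median was therefore 0.14 (SD 0.64), 9th of 108, and its mean 0.45, the highest mean of all targets. SIX2, its relative in the pool, had 0.13 (SD 0.21) with guides between -0.19 and 0.42.

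The other 5 guides above 1 belonged to 5 targets whose other guides had medians near 0. Guide sgRNA1916 of ZNF131 stood at 4189 CPM in MYH high cells and 1356 CPM in MYH low cells, a log2 ratio of 1.72, while the other 9 guides had a median of -0.028. Guide sgRNA1033 of ARNT, the dimer partner of hypoxia-inducible factors, had 3686 CPM in MYH high cells and 1784 CPM in MYH low cells, a ratio of 1.14, beside a median of -0.070 for the other 9. For NPAS1 the single guide had 1.36 and the others a median of 0.0044, for ZNF784 1.26 and -0.014, and for REST, which silences neuronal genes, 1.07 and -0.12. REST had this 1 guide above 0 and 9 below. The next highest guide stood at 0.97 for ZNF784, 0.73 for NPAS1 and 0.53 for ZNF131, against 0.20 for ARNT and -0.061 for REST. Whether these guides act through their target was not tested, and their sequences were not used here.

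**Figure D5:**
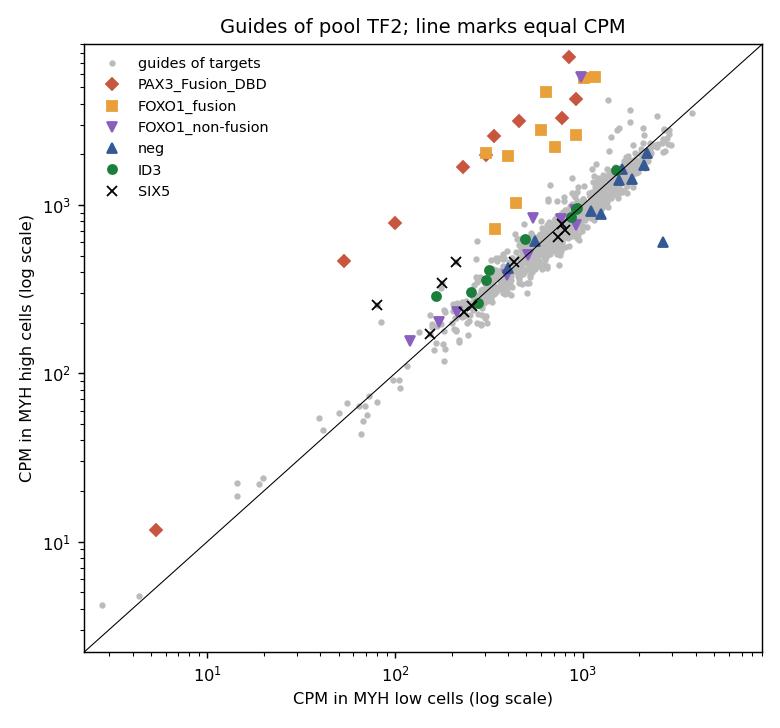
CPM of TF2 guides in MYH high cells (y axis) against MYH low cells (x axis), both on log scales, with the line of equal CPM; guides of all targets, of both fusion sets, of FOXO1_non-fusion and of the negative controls are drawn, and those of PAX3_non-fusion, MYOD1 and PCNA are not. The fusion guides and 1 guide labelled FOXO1_non-fusion stand above the cloud of target guides, 3 SIX5 guides stand apart at low CPM, 1 negative-control guide lies far below the line, and the ID3 guides lie close to the cloud.

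Low-abundance guides were the most spread. The target guides were put into 4 bins of 268 by their mean CPM over both arms. In the lowest bin (3.49 to 486 CPM) the SD of the log2 ratio was 0.32, and in the next 3 bins it was 0.22, 0.21 and 0.26. The counting error in the lowest bin had a median of 0.014, so it makes up little of that spread. The lowest bin had a median of 0.035 and the highest one -0.028. Across the 108 targets the Spearman correlation of the median guide CPM with the SD over guides was -0.15, and with the median log2 ratio -0.29. Targets share both libraries, and the CPM enters both measures. ID3 and SIX5 were among the less abundant targets, with medians of 404 and 243 CPM in MYH low cells, and the part of abundance in their values was not tested.

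A second pool carried 4 of the targets, with guides of other names, and gave small values as well. CTCF, the insulator protein that holds chromatin loops with cohesin, had -0.013 (SD 0.21) in TF2 and 0.16 (SD 0.15) in CF1, with 5 and 8 of 10 guides above 0. E2F2, an activator of S-phase genes, had 0.0020 (SD 0.22) in TF2 and 0.14 (SD 0.15) in DR2. It ranked 52nd of 108 in TF2, while its value in DR2 was the highest median of the 74 targets there. TFDP1, the dimer partner of E2F2, had 0.046 (SD 0.23) in TF2 and 0.0018 (SD 0.17) in CF2. DMRT2, a DM-domain factor, had 0.0069 (SD 0.19) in TF2 and 0.044 (SD 0.17) in DR1. All 4 differences were smaller than the SD over guides in TF2, the wider of both SDs for each target, and were not tested. The CTCF difference was larger than its SD in CF1.

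The authors' deposited table for TF2 gives a model score, beta, and false discovery rates per target. At 0.05, 0 of the 108 targets passed in the authors' deposited table, both in the column fdr, where the lowest rate was 0.25, and in the Wald column, where it was 0.313. The 2 fusion sets passed in the column fdr and not in the Wald column, where they stood at 0.402 (FOXO1_fusion) and 0.511 (PAX3_Fusion_DBD) in the authors' deposited table. At an unadjusted p of 0.05, 3 targets passed in the authors' deposited table: SIX5 with a beta of 0.31, SUB1 with -0.11 and DNAJC2 with -0.097. The negative-control set had the same unadjusted p as SIX5 in the authors' deposited table, 0.0087, with a beta of -0.17. In the authors' deposited table, unadjusted Wald values were at or below 0.05 for 17 targets, 9 with a beta above 0 and 8 below, among them ID3, HSF1, MYBL2, POU2F1, SUB1 and DNAJC2, and SIX5 was not (0.078). ID3 had a beta of 0.21 in the authors' deposited table, the next highest after SIX5, and a rate of 0.423. Beta followed the mean over guides closely, with a Spearman correlation of 0.9996 across 108 targets and a slope of 0.689, near the natural logarithm of 2 (0.693), and the median less closely (0.852).

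Set beside the other transcription factor pools, TF2 had the narrowest spread of target medians. The SD over targets was 0.094 in TF2, against 0.19 in TF1 (104 targets) and 0.11 in TF3 (108 targets). Its highest median of 0.25 stood against 1.63 in TF1 and 0.56 in TF3. Beside 0% in TF2, the targets past 0.3 toward MYH high made up 3.85% in TF1 and 1.85% in TF3, and those past -0.3 toward MYH low 0.962% in TF1 and 0.926% in TF3. Targets with every guide above 0 made up 0.935% in TF2, 3% in TF1 and 1.85% in TF3, and those with every guide below 0 made up 0%, 2% and 0%. Among the 10 pools the spread of TF2 ranked 4th from the lowest, within the range of 0.059 to 0.19 of the others, and its median SD over guides of 0.21 ranked 8th from the lowest, between 0.11 and 0.28 in the others. These pools are 1 sort each, and their difference was not tested.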

How the data were processed

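Guide cassettes were amplified from the genomic DNA of sorted RH4 cells by PCR for sequencing, as the labels' protocols describe. Raw read counts per guide were deposited by the authors as 1 table per sample. The submitters' processing notes name FastQC and MAGeCK; their versions and settings were not given in the sources used here. The authors also deposited a model score (beta) with p-values and false discovery rates per target, whose direction, MYH high over MYH low, was read from the fusion sets.

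From the counts, CPM was computed for each sample, then log2((MYH high + 1)/(MYH low + 1)) per guide with a pseudocount of 1 CPM, centred on the median of all guides of the pool (-0.089 before centring). A target's value is the median over its guides. Guides with fewer than 10 reads over both arms were to be left out, which removed 0 in TF2. With 1 sample per arm no count model was run. Confidence intervals are exact (Clopper-Pearson). Shared sets of the other pools were matched by the guide names of TF2. The summary was tested on simulated data. Scripts ran under Python 3.11.15 with scipy 1.17.1, pandas 2.3.3 and numpy 2.4.6.

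The targets, lists and limits were chosen with earlier results of these data known. Named are the 15 highest and 15 lowest targets, the highest and lowest member of each list with at least 3 targets, all targets of the myogenic list, those in a second pool, the shared sets and targets with every guide on 1 side of 0 and past 0.2, 45 targets in all; guides past 1 and their targets, and NFE2, RARG and the forkhead targets, were named after their values were seen. Of the 108 target names, 105 are current RefSeq symbols, 2 are older ones (CCDC79 and HKR1) and NKX6 matched none. Guide sequences and genome coordinates were not used here. Alternatives covered centring, size factors, pseudocount, count minimum, summary over guides, the limit and the pools compared; leaving out sgRNA3191, and pool CF3 from the shares of calls, was added after seeing the data.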

Additional observations from a re-analysis of the deposited data

Results flagged for a closer look

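In pool CF3, 5 of the 7 shared sets to which TF2 was compared stood apart from the other pools, by a gap to the nearest pool that was a larger share of the whole range than Dixon's 95% critical value (0.466 for 10 pools, 0.493 for 9). The median log2 ratios in CF3 were 1.04 for PAX3_non-fusion, 0.52 for FOXO1_non-fusion, 0.52 for MYOD1, 1.34 for PCNA and 1.30 for the negative controls. Chance flags about 1 in 20 such groups, and the sets of a pool share its libraries. This check looks only at the lowest and the highest pool of a set. TF2 was at an end only for the negative controls, with a gap of 0.0026 of a range that CF3 widens. For the other sets the check could not flag TF2, so it does not show whether TF2 differs.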

How the results depend on the processing

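The 52 target and set medians were recomputed under 12 alternatives, and FOXO1_non-fusion also without sgRNA3191. Of these 625 values, 620 moved by less than the SD over guides, and 27 of the 45 named targets kept their sign in each. Dropping the count minimum could move no value, since the minimum had removed 0 guides, and the size factors only shift all ratios by 1 constant. The share that stayed within the SD was thus partly fixed in advance. The SD over guides was larger than the size of the median for 103 of the 108 targets, so a value can change sign within it. CTCF did so, from -0.013 to 0.096 when centred on the negative controls. ID3 lay between 0.17 and 0.36 in 13 settings, and JUNB between -0.27 and -0.069. The count of targets at 0.3 or above was 0, and became 3 when centred on the negative controls (ID3, TERF1 and HNF4A), 1 with the mean over guides (SIX5), 3 with summed CPM (ZNF784, ZNF131 and ZNF319) and 1 at a limit of 0.2 (ID3). The count with every guide above 0 was 1, and became 7 when centred on the negative controls, 0 with no centring, and 3 without the guide farthest from the median (CDX2, HSF1 and ID3). The count with every guide below 0 was 0, and became 4 with no centring and 2 without the farthest guide (POU2F1 and REST). With summed CPM, FOXO1_non-fusion was 1.03 in place of 0.20. Without pool CF3, PAX3_non-fusion in TF2 lay 0.056 above the mean of the other pools, in place of -0.050 (exact permutation p = 0.667 and 0.8). Centring moves every guide of the pool by 1 constant, and the negative controls include a guide at -2.06. Without that guide their median was -0.044 in place of -0.11. No paired analysis was possible because each arm of TF2 is 1 sample and the labels give no replicate numbers; for the same reason no replicate could be left out. A median near 0 over 10 guides does not show that a target has no effect, and 1 sort per arm gives no estimate of the spread between sorts.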

Other observations

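Of the 67 shared guides, 13 in TF2 lay outside the range of the same guide in the other pools, 3 above it and 10 below. Each guide has a highest and a lowest value among the 9 or 10 sorts that carry it. Every sort can thus hold such guides by rank alone, and the count is not read as a difference of TF2. The guides also share the sort and its centring, so they are not independent, and the count was not tested. One negative-control guide, sgRNA3239, had 603 CPM in MYH high cells and 2675 CPM in MYH low cells of TF2, a log2 ratio of -2.06. In 9 other sorts this guide ranged from -2.51 (DR1) to 4.43 (CF1). Read counts of the guide in TF2 were 28744 in MYH high cells and 229015 in MYH low cells, so counting error is small beside the ratio.

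In the authors' deposited table for TF2, the column of guide numbers gives 11 guides for FOXO1_fusion and 1 for FOXO1_non-fusion, while the deposited count tables label 10 guides with each. The authors' deposited table gives FOXO1_non-fusion a beta of 0.32.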
